A study of Mus musculus with 18 samples.

Results

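The 6 genes described here encode receptors that guide thymocytes through the thymus: Ccr7, Ccr9, Ccr4, Cxcr4, Gpr183 and Plxnd1. They were found by their Entrez Gene numbers in the count tables, which list 27179 genes, and all 6 passed the filter on low counts that left 12798 genes to be tested. RNA sequencing had been done on thymocytes sorted after positive selection from 9 mice, 3 of each genotype, and each mouse gave a pair of CD69+ samples, early (MHC I low) and late (MHC I high), 18 in all. WT mice were the controls. Hoil ΔCd4 mice carried floxed alleles of Rbck1, the gene of HOIL-1, which a Cre transgene driven by Cd4 removes in the T lineage from the time the promoter is active, so that other thymic cells keep the gene, and the floxed line came from 1 targeted clone of embryonic stem cells. Sharpin cpdm mice carry the cpdm mutation and lack SHARPIN in every cell of the body, and came from a C57BL/Ka stock crossed back to C57BL/6 for only a pair of generations, so that they also differ from WT in genetic background. HOIL-1 and SHARPIN belong to the linear ubiquitin chain assembly complex. The age of these mice, and whether the WT mice carried the Cre transgene, are not given in the sources used here. The sort had left out B cells (B220), myeloid cells (Mac-1, Gr1), MHC II+ cells, NK and γδ T cells (NK1.1, δTCR) and cells with CD44 or CD25.

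Library totals ran from 10577966 to 16266128 counts with a median of 13979793. Rbck1 lay between 217.2 and 267.6 CPM (counts in 1000000 counts of a library, after TMM scaling between libraries) in the WT samples. In Hoil ΔCd4 mice it was between 0.271 and 0.778 CPM in the early fraction and at 3.72, 8.94 and 4.51 CPM in the late fraction of mice 1, 2 and 3. H2-K1, the gene of the antigen the sort used, rose from 215.6 to 2003 CPM between the WT fractions. The mutation in Sharpin cpdm mice leaves the transcript in place, with 71.5 and 73.8 CPM of Sharpin against 91.3 and 89.7 in WT. Its values lay below all WT values of the same fraction, at 66.4 to 74.7 against 85.9 to 97.3 CPM (early) and 69.4 to 77.9 against 86.5 to 91.9 CPM (late). That gap is small beside the one of Rbck1, so the level is only a weak check of that label. By Xist and Ddx3y, the 3 WT mice, Hoil ΔCd4 mouse 3 and Sharpin cpdm mouse 2 were female and the others male. One library stood apart, that of Hoil ΔCd4 mouse 2 in the late fraction, with 64.6 CPM of Xist beside 338.6 CPM of the Y-linked Ddx3y, and it is part of the results below, which are also given without mouse 2 where that changes a call. Markers of double-positive and mature single-positive thymocytes were present in every group, and none of the 6 and 4 genes of these lists was at 0 (the second without Ccr7).

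A developing T cell meets its selecting ligands in the thymic cortex, and once positively selected it moves to the medulla and finally leaves the organ. Chemokine receptors set this path. CXCR4 and CCR9 respond to CXCL12 and CCL25 and are known for holding or placing immature thymocytes, CCR4 and CCR7 respond to ligands made in the medulla, EBI2 (the product of Gpr183) follows oxysterols, and plexin D1 receives semaphorin 3E and is known for the passage of CD69+ thymocytes into the medulla.

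The RefSeq promoter table for GRCm38.p6, the build also called mm10, held 5 of the 6 members, all but Ccr7. Each window covers 250 bases before and 50 after a start site. All 5 genes lay lower in MHC I high cells in every genotype, and their windows differ in composition and motifs. Of the 5, 3 are printed as examples: Cxcr4 (chr1:128592250-128592549, minus strand, 59.3% G or C), Ccr4 (chr9:114496495-114496794, minus strand, 46.3%) and Gpr183 (chr14:121965144-121965443, minus strand, 35.3%). The median of all 32851 windows in the table was 52.7%. Capitals mark matches on either strand to the κB motif (3 G, any 2 bases, 3 T and 2 C), the AP-1 letters TGANTCA, the E-box letters CANNTG, the GC box letters GGGCGG and the TATA letters TATAAA.
Cxcr4: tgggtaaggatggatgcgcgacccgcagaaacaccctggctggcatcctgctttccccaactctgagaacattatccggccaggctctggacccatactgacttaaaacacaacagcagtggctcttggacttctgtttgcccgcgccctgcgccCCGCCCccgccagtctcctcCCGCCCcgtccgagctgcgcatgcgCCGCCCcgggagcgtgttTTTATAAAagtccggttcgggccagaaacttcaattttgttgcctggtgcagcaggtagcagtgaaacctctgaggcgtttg
Ccr4: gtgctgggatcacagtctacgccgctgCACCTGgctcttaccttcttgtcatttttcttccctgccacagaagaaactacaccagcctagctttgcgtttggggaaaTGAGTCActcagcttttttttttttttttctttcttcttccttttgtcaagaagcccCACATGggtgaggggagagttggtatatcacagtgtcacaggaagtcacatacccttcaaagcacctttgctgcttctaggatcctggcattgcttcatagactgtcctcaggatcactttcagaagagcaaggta
Gpr183: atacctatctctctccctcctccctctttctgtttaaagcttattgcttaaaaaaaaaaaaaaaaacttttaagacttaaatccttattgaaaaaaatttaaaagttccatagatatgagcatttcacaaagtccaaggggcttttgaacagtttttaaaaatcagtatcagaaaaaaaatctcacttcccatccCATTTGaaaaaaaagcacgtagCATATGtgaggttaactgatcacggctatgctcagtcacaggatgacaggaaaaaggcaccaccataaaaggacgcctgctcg
The Cxcr4 window held 3 GC boxes, which begin 95, 75 and 50 bases before the start, and a pair of overlapping TATA matches, 1 on each strand, at 32 and 30 bases before it. GC boxes were in 35.7% of all windows and TATA matches in 13.6%. Ccr4 had an AP-1 match 143 bases before the start, a motif found in 7.81% of windows, and 2 E-boxes, at 223 and 86 bases. This Ccr4 start site lies inside the bounds of the gene rather than at their edge. Gpr183 had 2 E-boxes, at 55 and 33 bases before the start, and E-boxes were in 72.3% of windows. Of the windows not printed, that of Ccr9 (51.3% G or C) held 2 E-boxes and that of Plxnd1 (67%) held 2 GC boxes. The κB motif was in 1.63% of all windows and in 0 of these 5, which says only that these letters are not in these 300 bases. The matches are descriptions of sequence and were not tested as binding sites.

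The first comparison asks how the 6 genes change between MHC I low cells and the later MHC I high cells of the same mouse. Ccr7 rose and Ccr9, Ccr4, Cxcr4, Gpr183 and Plxnd1 fell, in each of the 3 genotypes. All 6 were thus called in each genotype. Of all genes tested 54.4% were called in WT mice (27.5% higher and 26.8% lower), 45.3% in Hoil ΔCd4 mice (23.5% and 21.7%) and 54.6% in Sharpin cpdm mice (27.2% and 27.4%). Calls here and below are adjusted p-values (Benjamini-Hochberg over 12798 genes) under 0.05 in a limma model of all 18 samples in which each mouse is a random block, and SE is the standard error of a log2 fold change. The median log2 fold change of the 6 was −1.15 for WT, −1.02 for Hoil ΔCd4 and −1.14 for Sharpin cpdm mice, against medians from −0.0042 to 0.001 over all genes. These are sorted populations, so fewer cells that carry a transcript and less transcript per cell cannot be told apart.

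**Figure D1:**
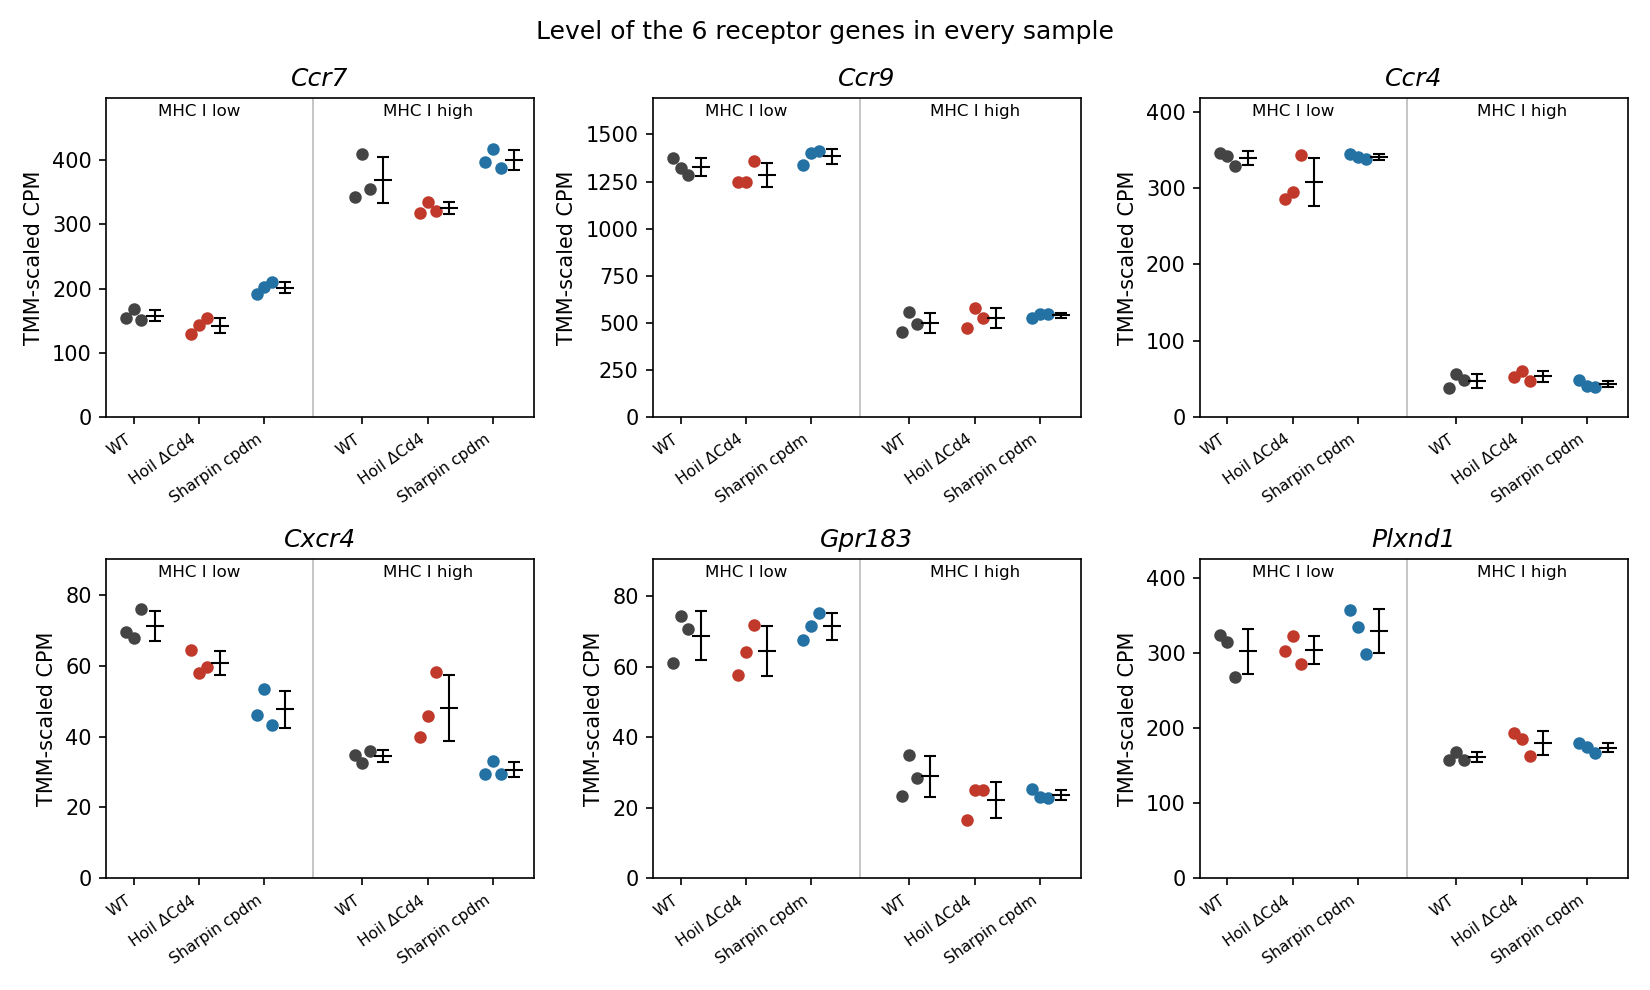
Level of each member in TMM-scaled CPM (y axis, from 0) in the 18 samples, by genotype and fraction (x axis). Points are mice 1, 2 and 3 from left to right, and bars give the mean and SD of 3 mice. The fractions do not overlap for any gene and genotype except Cxcr4 in Hoil ΔCd4 mice, where the highest MHC I high value is 58.2 and the lowest MHC I low value 58.0.

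Ccr7 (chromosome 11, 99144199–99155077) encodes the receptor for CCL19 and CCL21 and marks thymocytes entering the medulla. In WT mice 1, 2 and 3 it was at 154.2, 168.0 and 151.4 CPM in MHC I low cells and at 343.2, 410.4 and 355.9 CPM in MHC I high cells. Hoil ΔCd4 mice had 129.7, 143.2 and 154.3 CPM in the low and 318.2, 335.8 and 321.5 CPM in the high fraction. Sharpin cpdm mice had 192.2, 202.5 and 209.6 CPM in the low and 396.9, 417.9 and 387.4 CPM in the high fraction. Every MHC I high sample was thus above every MHC I low sample, and the Sharpin cpdm MHC I low samples were above all other low samples. The rise was 2.3-fold in WT (log2 fold change 1.2, SE 0.0495, adjusted p = 3.28e-19), 2.29-fold in Hoil ΔCd4 (adjusted p = 1.3e-16) and 2.01-fold in Sharpin cpdm mice (adjusted p = 8.8e-17).

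Ccr4 (chromosome 9, 114490316–114505476) encodes the receptor for CCL17 and CCL22, which medullary cells make, and it changed most of the 6. WT mice had 346.2, 342.4 and 328.8 CPM in MHC I low and 37.99, 55.8 and 48.6 CPM in MHC I high cells. In Hoil ΔCd4 mice the values were 285.7, 295.5 and 343.7 CPM and then 52.6, 60.8 and 46.7 CPM. In Sharpin cpdm mice they were 344.6, 340.4 and 337.7 CPM and then 47.9, 41.1 and 39.8 CPM. No sample of one fraction came near the other fraction. MHC I high cells were 7.25-fold lower in WT (log2 fold change −2.86, SE 0.0984, adjusted p = 4.82e-13), 5.8-fold lower in Hoil ΔCd4 (adjusted p = 5.23e-11) and 8.02-fold lower in Sharpin cpdm mice (adjusted p = 4.3e-13). Thus Ccr4 and Ccr7, both receptors for medullary ligands, moved in opposite directions between these fractions.

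Ccr9 (chromosome 9, 123767211–123783457), which encodes the CCL25 receptor, was the member with most counts, 5492 to 21514 a library. Its annotated bounds overlap with those of a predicted long non-coding RNA, and since the use of strand is not given, reads where they overlap cannot be told apart in the levels, order and ratios given for Ccr9. In WT mice it went from 1377, 1323 and 1285 CPM in MHC I low cells to 448.4, 555.4 and 494.9 CPM in MHC I high cells. Hoil ΔCd4 mice went from 1249, 1250 and 1359 CPM to 474.3, 577.6 and 527.2 CPM, and Sharpin cpdm mice from 1337, 1403 and 1411 CPM to 522.9, 549.1 and 545.6 CPM. The 3 genotypes overlapped or lay close together in both fractions. The decrease was 2.7-fold in WT (log2 fold change −1.43, SE 0.051, adjusted p = 1.3e-20), 2.43-fold in Hoil ΔCd4 (adjusted p = 7.12e-17) and 2.56-fold in Sharpin cpdm mice (adjusted p = 1.8e-19).

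Cxcr4 (chromosome 1, 128588199–128592299) encodes the CXCL12 receptor, through which immature thymocytes are kept in the cortex, and it was the member whose change differed most in size between genotypes. In WT mice it was at 69.5, 67.9 and 75.9 CPM in MHC I low and at 34.8, 32.5 and 35.9 CPM in MHC I high cells. Hoil ΔCd4 mice had 64.4, 58.0 and 59.8 CPM in the low and 39.9, 45.8 and 58.2 CPM in the high fraction. Sharpin cpdm mice had 46.0, 53.5 and 43.3 CPM in the low and 29.5, 33.0 and 29.3 CPM in the high fraction. The fractions were apart in WT and Sharpin cpdm mice and met in Hoil ΔCd4 mice, where mouse 3 hardly differed between them. MHC I high cells were 2.03-fold lower in WT (log2 fold change −1.02, SE 0.0774, adjusted p = 4.59e-12), 1.56-fold lower in Sharpin cpdm (−0.64, SE 0.0812, adjusted p = 1.13e-07) and 1.26-fold lower in Hoil ΔCd4 mice (−0.34, SE 0.0952, adjusted p = 0.00483). Without Hoil ΔCd4 mouse 1 the last of these was −0.19 (adjusted p = 0.159, alternatives 0.000176–0.159) and was no longer called.

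Gpr183 (chromosome 14, 121952331–121965193) encodes EBI2 and was the least abundant member, with 216 to 1166 counts a library. WT mice had 61.2, 74.6 and 70.9 CPM in MHC I low and 23.3, 34.95 and 28.4 CPM in MHC I high cells. In Hoil ΔCd4 mice it fell from 57.7, 64.1 and 72.0 CPM to 16.4, 25.2 and 25.0 CPM, and in Sharpin cpdm mice from 67.6, 71.5 and 75.3 CPM to 25.3, 22.9 and 22.8 CPM. Genotypes overlapped in each fraction. The decrease was 2.43-fold in WT (log2 fold change −1.28, SE 0.102, adjusted p = 9.32e-10), 2.88-fold in Hoil ΔCd4 (adjusted p = 2.26e-09) and 3.02-fold in Sharpin cpdm mice (adjusted p = 5.49e-11). Gpr183 lies inside the bounds of Ubac2, which was at 109.3 to 142.9 CPM in all samples. Whether the counting used strand is not given in the sources used here, so reads of the genes cannot be told apart where their transcripts overlap.

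Plxnd1 (chromosome 6, 115954811–115995339) encodes plexin D1, the member of the 6 that is no G-protein-coupled receptor. In WT mice it was at 324.1, 314.4 and 268.7 CPM in MHC I low and at 157.8, 168.6 and 157.6 CPM in MHC I high cells. Hoil ΔCd4 mice had 302.9, 323.3 and 285.6 CPM and then 193.7, 184.9 and 162.9 CPM, while Sharpin cpdm mice had 356.9, 334.6 and 298.5 CPM and then 180.3, 174.8 and 167.2 CPM. The fractions were apart in every genotype and the genotypes overlapped in both fractions. The decrease was 1.89-fold in WT (log2 fold change −0.92, SE 0.0552, adjusted p = 8.2e-15), 1.69-fold in Hoil ΔCd4 (adjusted p = 1.08e-10) and 1.91-fold in Sharpin cpdm mice (adjusted p = 1.42e-14).

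**Figure D2:**
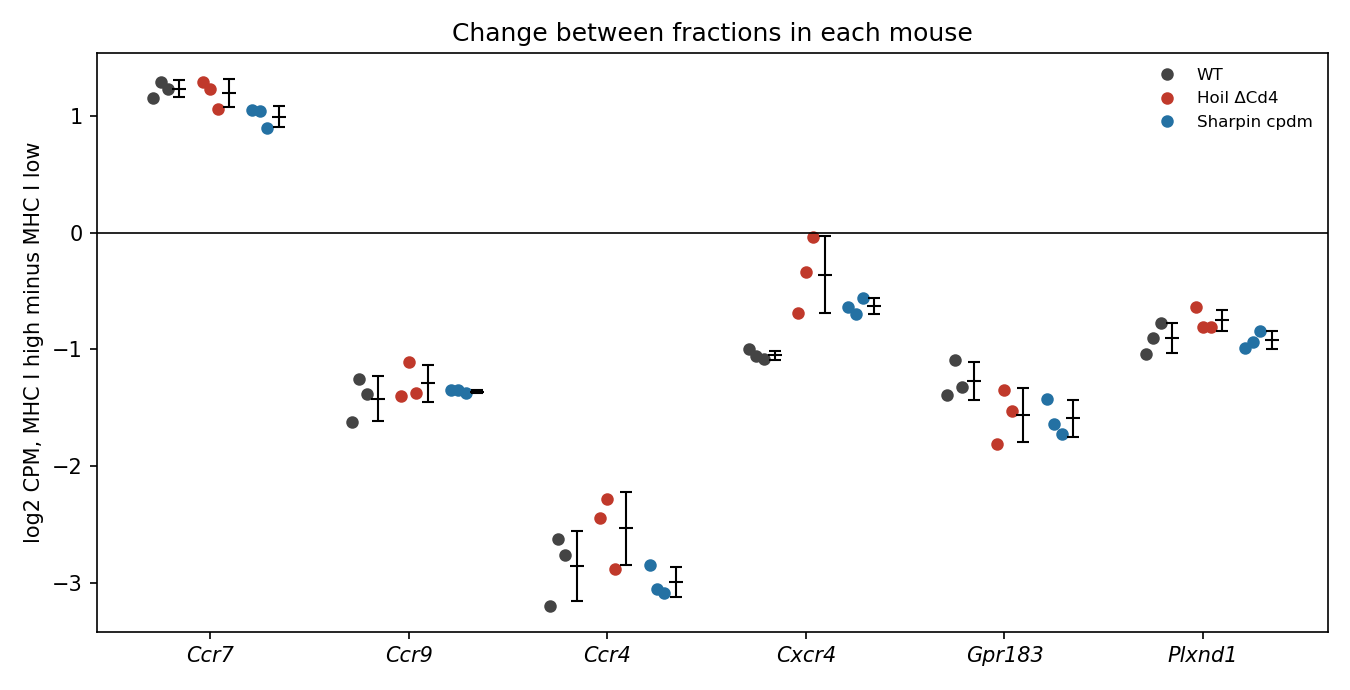
Difference in log2 CPM between the MHC I high and the MHC I low sample of each mouse (y axis) for the 6 genes (x axis). Points are mice 1, 2 and 3 of each genotype and bars give their mean and SD. Ccr7 is above 0 and the other 5 genes are below 0 in all 9 mice, and the Cxcr4 values of Hoil ΔCd4 mice spread from −0.69 to −0.04.

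Levels of different genes can be compared only per length of counted exons, here in CPM per kilobase. In WT MHC I low cells the order was Ccr9 (302), Ccr4 (122), Ccr7 (79.9), Plxnd1 (43.8), Cxcr4 (39.2) and Gpr183 (23.4), and only Plxnd1 and Cxcr4 among neighbours overlapped between mice. The order in WT MHC I high cells was Ccr7 (187), Ccr9 (114), Plxnd1 (23.4), Cxcr4 (19), Ccr4 (17) and Gpr183 (9.82), and only Cxcr4 and Ccr4 overlapped. Ccr7 thus went from the third to the first place and Ccr4 from the second to the fifth. Hoil ΔCd4 MHC I high cells differed in that Cxcr4 (26.4) and Plxnd1 (26.1) overlapped in the third place. In the early fraction of Sharpin cpdm mice Cxcr4 (26.3) overlapped with Gpr183 (24.3) at the lower end.
The ratio of Ccr7 to Ccr9 per length was 0.249, 0.282 and 0.262 in WT MHC I low cells and 1.7, 1.64 and 1.6 in WT MHC I high cells. It was 0.32, 0.321 and 0.33 in the early fraction of Sharpin cpdm mice, above the 3 WT values, and 1.69, 1.69 and 1.58 in the high fraction. Hoil ΔCd4 mice had 0.231, 0.255 and 0.253 in the low fraction, which overlaps with WT, and 1.49, 1.29 and 1.36 in the high fraction, below the 3 WT values. These ratios were not tested.

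The next comparisons ask whether loss of HOIL-1 in T cells or of SHARPIN in all cells changed the 6 genes within a fraction. Differences from WT were found for Ccr7 and Cxcr4 only. All comparisons with WT share the same WT samples.
Between Hoil ΔCd4 and WT MHC I low cells limma called 0 of the 6 members, where 0.985% of all genes were called (0.422% higher, 0.563% lower). At an unadjusted p under 0.05 there were 2 (Ccr7, log2 fold change −0.14, and Cxcr4, −0.23), and edgeR and DESeq2 also called 0. By p-value these ranked 1229 and 1170 among all genes tested, so at least 1229 genes passed that unadjusted threshold. The percentages above are of adjusted calls and are no background for this count. The 95% intervals were −0.28 to −0.01 for Ccr7, −0.44 to −0.01 for Cxcr4 and −0.18 to 0.09 for Ccr9. The 3 Cxcr4 values lay below all WT values, while those of Ccr7 overlapped with WT. With Xist as a covariate for sex, 0 of the 6 had an unadjusted p under 0.05. Ccr7 was then at a log2 fold change of −0.072 (limma, unadjusted p = 0.306).
In MHC I high cells Cxcr4 was higher in Hoil ΔCd4 than in WT mice, the 1 of 6 members called where 6.65% of all genes were (3.84% higher, 2.81% lower). Its 39.9, 45.8 and 58.2 CPM stood against 34.8, 32.5 and 35.9 CPM, without overlap. The log2 fold change was 0.46 (SE 0.0927, adjusted p = 0.00247), a 1.38-fold difference with 3 of 3 mice above every WT mouse. It rests in part on mouse 3, since without that mouse it was 0.28 (adjusted p = 0.119, alternatives 0.000176–0.119). Mouse 3 was the Hoil ΔCd4 mouse of the same sex as the WT mice. Without mouse 2, whose late library stood apart, the difference was 0.46 (adjusted p = 0.0376). Ccr7 was at a log2 fold change of −0.15 (adjusted p = 0.126, 95% interval −0.27 to −0.03) and Gpr183 at −0.31 (adjusted p = 0.13, −0.57 to −0.06), both short of the threshold. Ccr7 lay below the WT range in all 3 mice, while Gpr183 overlapped with it. Plxnd1 went the other way, at 0.16 (adjusted p = 0.151, 0.02 to 0.29), also short of the threshold and overlapping with WT. At an unadjusted p under 0.05 there were 4 members, and Plxnd1 ranked 1963 by p-value, so at least 1963 genes passed that threshold. With Xist as a covariate for sex there were 2, and 1 member was called. Ccr7 was then at −0.114 (limma, adjusted p = 0.269).

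In the early fraction, Sharpin cpdm mice had more Ccr7 and less Cxcr4 than WT mice. These were 2 of 6 members, where 12.2% of all genes were called (5.31% higher, 6.92% lower). Ccr7 was at 192.2 to 209.6 CPM against 151.4 to 168.0 CPM in WT, 1.28-fold more (log2 fold change 0.36, SE 0.0602, adjusted p = 0.000145). Cxcr4 was at 43.3 to 53.5 CPM against 67.9 to 75.9 CPM, 1.47-fold less (log2 fold change −0.55, SE 0.0942, adjusted p = 0.00021). Neither gene overlapped between the genotypes, and both stayed called in each of 22 alternative analyses. Sharpin cpdm mouse 2, female as the WT mice are, had 202.5 CPM of Ccr7 and 53.5 CPM of Cxcr4, outside the WT ranges. Its Cxcr4 value was the nearest to WT among the Sharpin cpdm mice. With all WT mice female, sex and genotype could not be fully told apart. With Xist as a covariate for sex the log2 fold change of Cxcr4 was −0.43. That of Ccr7 ran from 0.32 to 0.4 over the alternatives.
In MHC I high cells limma called 0 of the 6 between Sharpin cpdm and WT mice, where 8.62% of all genes were called (4.15% higher, 4.47% lower). At an unadjusted p under 0.05 there were 3 (Ccr7, Ccr9 and Gpr183), and edgeR and DESeq2 called 0. By p-value these 3 ranked 1258, 2129 and 2552 among all genes tested, so at least 2552 genes passed that unadjusted threshold. The percentages above are of adjusted calls and are no background for this count. Ccr7 came nearest, with a log2 fold change of 0.16 (95% interval 0.05 to 0.27, adjusted p = 0.0622), and 3 alternatives called it, with adjusted p = 0.0136 under the Xist covariate, 0.043 with at least 10 counts in every sample and 0.0245 without WT mouse 2 (alternatives 0.0136–0.657). Ccr9 (0.13, adjusted p = 0.137) was called under the covariate (0.0474) and without WT mouse 2 (0.0425, alternatives 0.0425–0.796), and Gpr183 (−0.25, adjusted p = 0.177) without Hoil ΔCd4 mouse 1 (0.0498, alternatives 0.0498–0.531).

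Set against each other, the mutants differed in the same genes, Ccr7 and Cxcr4. In MHC I high cells 2 of 6 members were called, where 6.73% of all genes were (3.71% higher, 3.02% lower). Hoil ΔCd4 cells had 39.9 to 58.2 CPM of Cxcr4 against 29.3 to 33.0 CPM in Sharpin cpdm cells (log2 fold change 0.64, SE 0.0939, adjusted p = 6.02e-05). They had 318.2 to 335.8 CPM of Ccr7 against 387.4 to 417.9 CPM (−0.31, SE 0.0601, adjusted p = 0.00124). Both genes were apart between the mutants without overlap. Without Hoil ΔCd4 mouse 2 the adjusted p-values were 0.00162 and 0.00638. In MHC I low cells 2 of 6 were called, where 9.48% of all genes were (5.12% higher, 4.36% lower). Ccr7 was lower in Hoil ΔCd4 than in Sharpin cpdm mice (−0.50, SE 0.0679, adjusted p = 1.08e-05). Cxcr4 was higher (0.33, SE 0.106, adjusted p = 0.0489), a call lost in 10 of 22 alternatives, with adjusted p up to 0.13 without Hoil ΔCd4 mouse 1, 0.0852 without Hoil ΔCd4 mouse 2, 0.0905 and 0.128 without Sharpin cpdm mouse 1 or 3, and 0.071, 0.0556 and 0.0608 without WT mouse 1, 2 or 3.
Ccr4 showed no called difference here, at 0.33 on the log2 scale in the late fraction (95% interval 0.07 to 0.58, adjusted p = 0.118). It was called without WT mouse 1 (adjusted p = 0.0378, alternatives 0.0378–0.461).

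**Figure D3:**
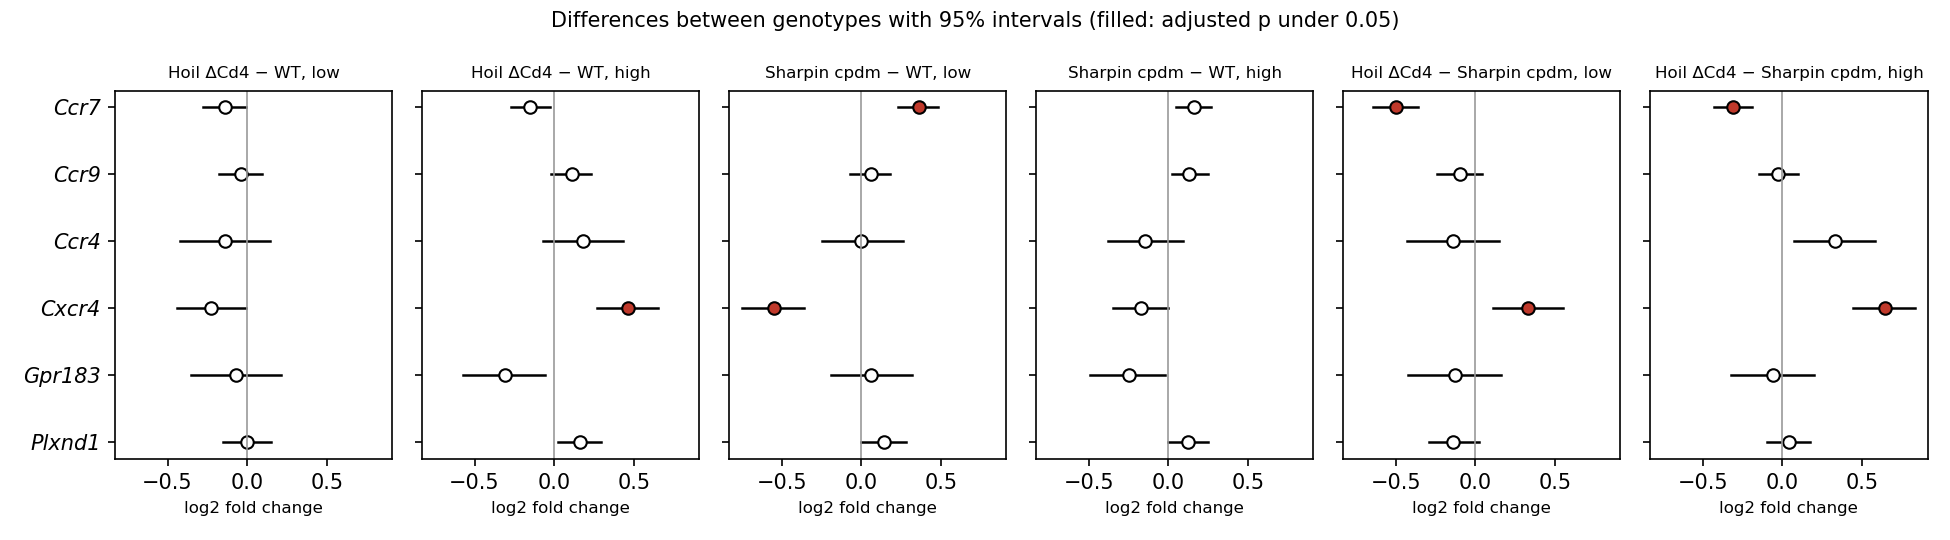
Differences between genotypes in each fraction (6 panels, MHC I low or high) as log2 fold changes (x axis) for the 6 genes (y axis), with 95% intervals from limma. Filled points mark adjusted p-values under 0.05, and these are 7 points, 4 of Cxcr4 and 3 of Ccr7.

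Whether the change between fractions itself differed from WT was tested as an interaction. The Cxcr4 decrease was smaller in Hoil ΔCd4 than in WT mice. This was the 1 of 6 members called, where 0.398% of all genes were (0.297% higher, 0.102% lower). The change was −1.0, −1.06 and −1.08 on the log2 scale in WT mice 1, 2 and 3 and −0.69, −0.34 and −0.04 in Hoil ΔCd4 mice, all 3 of them nearer to 0 than any WT mouse. The difference of the changes was 0.69 (SE 0.123, 95% interval 0.44 to 0.94, adjusted p = 0.00805), the eighth smallest p-value of all genes. It was not called in 7 of 23 alternatives, with adjusted p = 0.111 by edgeR, 0.0757 without a filter, 0.0563 without the mouse block and 0.0837 with the mouse number as the block. Leaving out Hoil ΔCd4 mouse 2 or 3 or WT mouse 3 gave 0.1, 0.147 and 0.115 (alternatives 0.00189–0.147).
In Sharpin cpdm mice limma called 0 of the 6 interactions, where 3.13% of all genes were called (2.2% higher, 0.93% lower). At an unadjusted p under 0.05 there were 3 (Cxcr4, Ccr7 and Gpr183), and edgeR and DESeq2 called 0. By p-value these 3 ranked 490, 1028 and 2144 among all genes tested, so at least 2144 genes passed that unadjusted threshold. The percentages above are of adjusted calls and are no background for this count. Cxcr4 changed by −0.64, −0.70 and −0.56 in the 3 mice, and its difference from the WT change was 0.38 (SE 0.112, 95% interval 0.15 to 0.61, adjusted p = 0.0573). Of 23 alternatives 5 called it, among them the fit with each mouse as a fixed term (adjusted p = 0.0163) and those without Hoil ΔCd4 mouse 1 (0.0375) or 3 (0.0271, alternatives 0.0163–0.241).

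**Figure D4:**
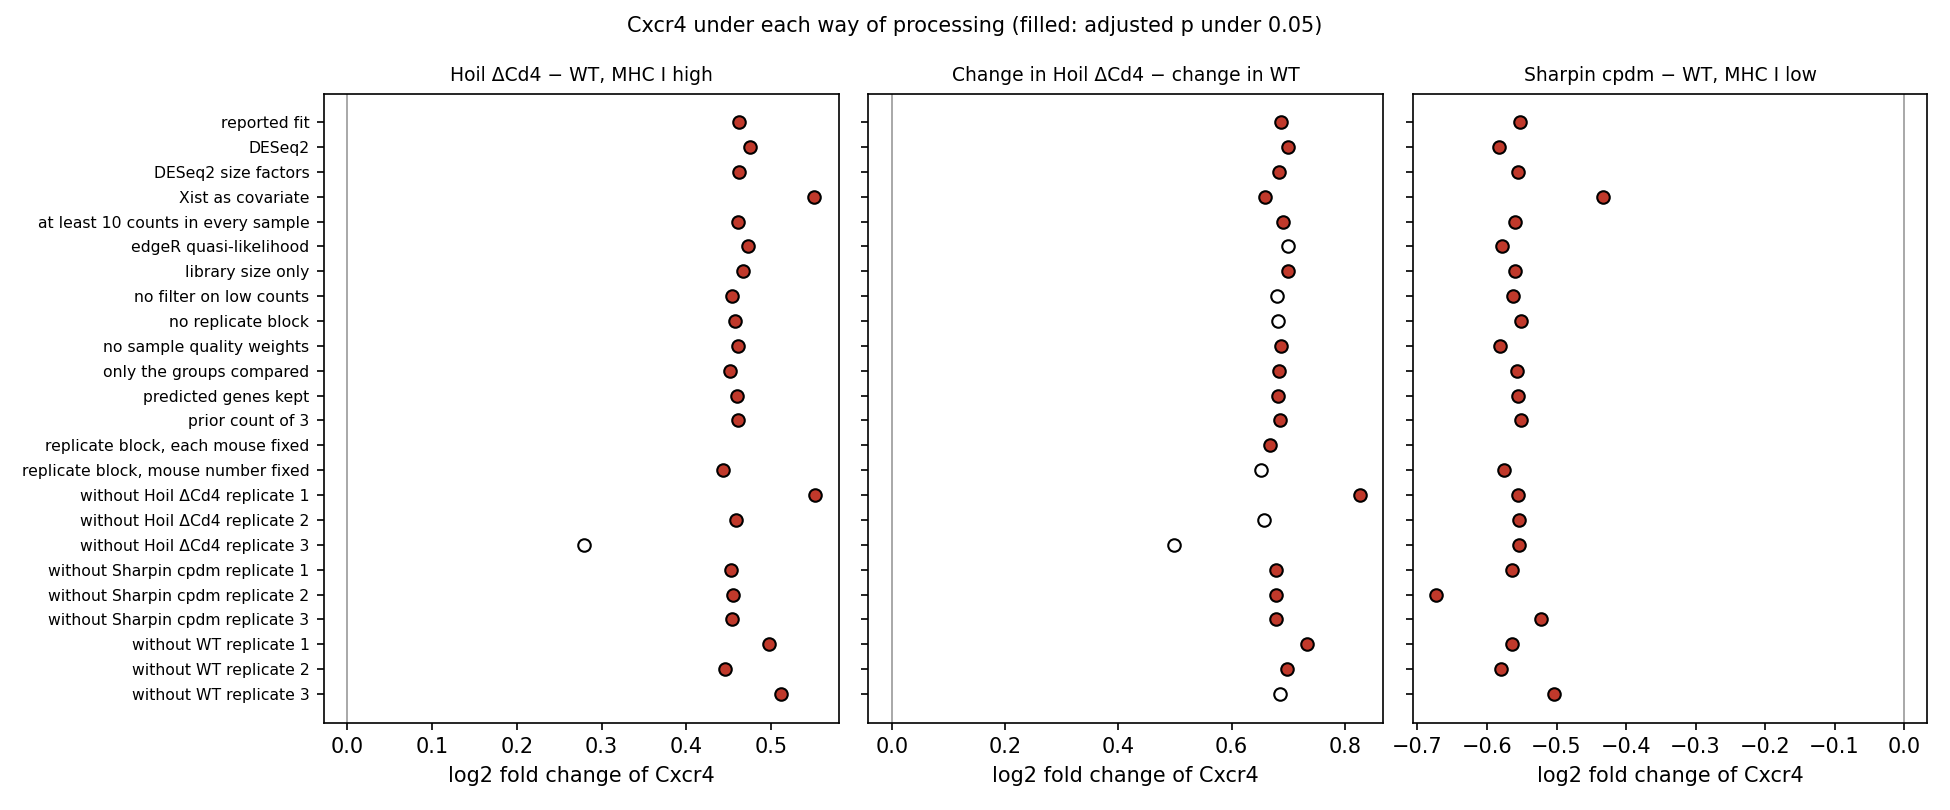
Log2 fold change of Cxcr4 (x axis) in 3 comparisons (panels) under each way of processing (y axis), with filled points for adjusted p-values under 0.05. The sign is the same throughout, from 0.28 to 0.55 in the first, from 0.50 to 0.83 in the second and from −0.67 to −0.43 in the third panel, while calls are lost in 1 case in the first and 7 in the second.

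Markers of thymocyte stages moved beside these results, and their part in them was not tested. The summed level of 6 double-positive markers (Rag1, Rag2, Dntt, Cd8b1, Arpp21 and Themis) was 739.9, 853.4 and 757.9 CPM in the late fraction of WT and 803.7, 1128 and 1031 CPM in that of Hoil ΔCd4 mice. Of the 6, 4 were called higher there, where 3.84% of all genes were. Cd8b1 and Themis were the largest parts of the late WT sum, with means of 336 and 247.4 CPM. Their means in late Hoil ΔCd4 cells were close to these, at 350.9 and 267.6 CPM. The smaller parts lay further apart. Rag1 had a mean of 84.7 CPM in late WT and 149.3 CPM in late Hoil ΔCd4 cells, and Dntt 89.6 and 166.8 CPM. Rag2 was at 5.005 and 10.86 CPM and Arpp21 at 21.0 and 42.1 CPM. Between the WT fractions Cd8b1 rose from 99.2 to 336 CPM. Of the 6 markers 1 was called higher and 4 lower between these fractions (27.5% and 26.8% of all genes), so the sum does not follow most of the list. Among the Hoil ΔCd4 mice, mouse 1 was lowest in both these markers and Cxcr4, while mouse 2 was highest in the markers and mouse 3 in Cxcr4. In MHC I low cells the sum was 675 to 733 CPM in WT and 575 to 629 CPM in Sharpin cpdm mice, where 0 of 6 were called higher and 2 lower (5.31% and 6.92% of all genes). In the high fraction of Sharpin cpdm mice it was 822 to 988 CPM, and 3 of 6 were called higher than in WT, where 4.15% of all genes were.
The 4 mature single-positive markers other than Ccr7 (S1pr1, Klf2, Il7r and Slfn1) summed in the early fraction to 486 to 516 CPM for Sharpin cpdm, 401 to 423 CPM for WT and 341 to 348 CPM for Hoil ΔCd4 mice. Most of this sum was Il7r, with means of 461.6, 383.7 and 318.4 CPM, a gene that fell between the fractions in all 3 genotypes. Klf2 ran the other way in the early fraction, with its highest mean in Hoil ΔCd4 (11.3 CPM) and its lowest in Sharpin cpdm mice (8.7 CPM), and 9.78 CPM for WT. Of the list with Ccr7, 5 genes, Sharpin cpdm mice had 2 called higher than WT in the early fraction, Ccr7 and Il7r (5.31% of all genes). Hoil ΔCd4 mice had 1 called lower there, Il7r (0.563% of all genes). In the late fraction the 4 markers without Ccr7 summed to 757 to 813 CPM in WT, 633 to 670 CPM in Hoil ΔCd4 and 772 to 817 CPM in Sharpin cpdm mice. Of the 5 genes with Ccr7, 1 was called lower than WT there in Hoil ΔCd4 mice (2.81% of all genes). In Sharpin cpdm mice 1 was called higher (4.15% of all genes). Markers of B, myeloid, epithelial and erythroid cells were low. Markers of B cells summed to at most 5.94 CPM in any sample, of myeloid and dendritic cells to at most 14 CPM, of thymic epithelium to at most 12.7 CPM and of erythroid cells to at most 0.314 CPM. The 4 γδ T-cell and NK markers were at 24.7 to 30.5 CPM in the late fraction of WT and 32.9 to 48.7 CPM in that of Hoil ΔCd4 mice, highest in mouse 3, and Ncr1 was at 0 in both. Only 2 of them were tested, Trdc and Trgc1, and both were called higher there than in WT (3.84% of all genes). Trdc had means of 26.3 CPM in late WT and 34.4 CPM in late Hoil ΔCd4 cells, and Trgc1 1.22 and 4.14 CPM. Both also rose between the fractions in all 3 genotypes, where 23.5% to 27.5% of all genes rose.

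Other receptors of the same families were read from lists that hold the members too. Of 23 chemokine receptors 13 passed the filter, and in WT mice 6 rose, 5 fell and 2 were not called between fractions, where 27.5% of all genes rose and 26.8% fell. Of those that rose, Ccr6, Ccrl2 and Cx3cr1, named after their values were seen, had means under 0.5 CPM in the early fraction of every genotype, so that passing the filter depended on the late fraction and the count is no measure of the family's direction. Beside the members, Cxcr6, the CXCL16 receptor, was at 6.75 ± 1.32 CPM (SD, n = 3) in WT and at 3.25 ± 0.183 CPM in Hoil ΔCd4 mice in the late fraction (−0.88 on the log2 scale, adjusted p = 0.00647). Ccr8, a receptor for CCL1, was at 24.9 ± 2.84 CPM in WT and 33.4 ± 1.18 CPM in Sharpin cpdm mice in the early fraction (0.44, adjusted p = 0.0141), higher as Ccr7 was.
The list of lipid and other class A receptors, to which Gpr183 belongs, had 12 of 16 genes tested, of which 5 rose and 6 fell in WT mice, against the same 27.5% and 26.8% of all genes. S1pr1, the sphingosine 1-phosphate receptor that thymocytes need to leave the thymus, went from 0.863 ± 0.0316 CPM to 80.0 ± 2.38 CPM in WT (log2 fold change 6.44, adjusted p = 7.83e-27). S1pr4 of the same family rose from 17.6 ± 1.74 to 90.2 ± 1.85 CPM, while the lysophosphatidylserine receptor gene Gpr174 fell from 274.6 ± 16.0 to 157.6 ± 2.4 CPM. S1pr4 was lower than WT in MHC I high cells of Hoil ΔCd4 (−0.37, adjusted p = 0.00526) and of Sharpin cpdm mice (−0.34, adjusted p = 0.00359). Ptger4, a prostaglandin E receptor gene, was lower in both fractions of Sharpin cpdm mice (−0.63, adjusted p = 3.57e-05, and −0.54, adjusted p = 8.15e-05).
Among 31 plexins, neuropilins and semaphorins 18 were tested, and 7 rose, 8 fell and 3 were not called in WT mice, where 54.4% of all genes were called. Plxnb1, a relative of Plxnd1, fell from 68.2 ± 5.57 to 33.6 ± 2.2 CPM (−1.0, adjusted p = 6.38e-15) and Sema7a from 30.7 ± 3.68 to 5.25 ± 0.53 CPM (−2.49, adjusted p = 8.38e-18). Sema3e, the gene of the plexin D1 ligand, had 0 counts in every sample. Nrp2, a semaphorin co-receptor gene, was at 9.14 ± 0.804 CPM in WT and 3.3 ± 0.167 CPM in Sharpin cpdm MHC I high cells (−1.40, adjusted p = 7.64e-07).

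**Figure D5:**
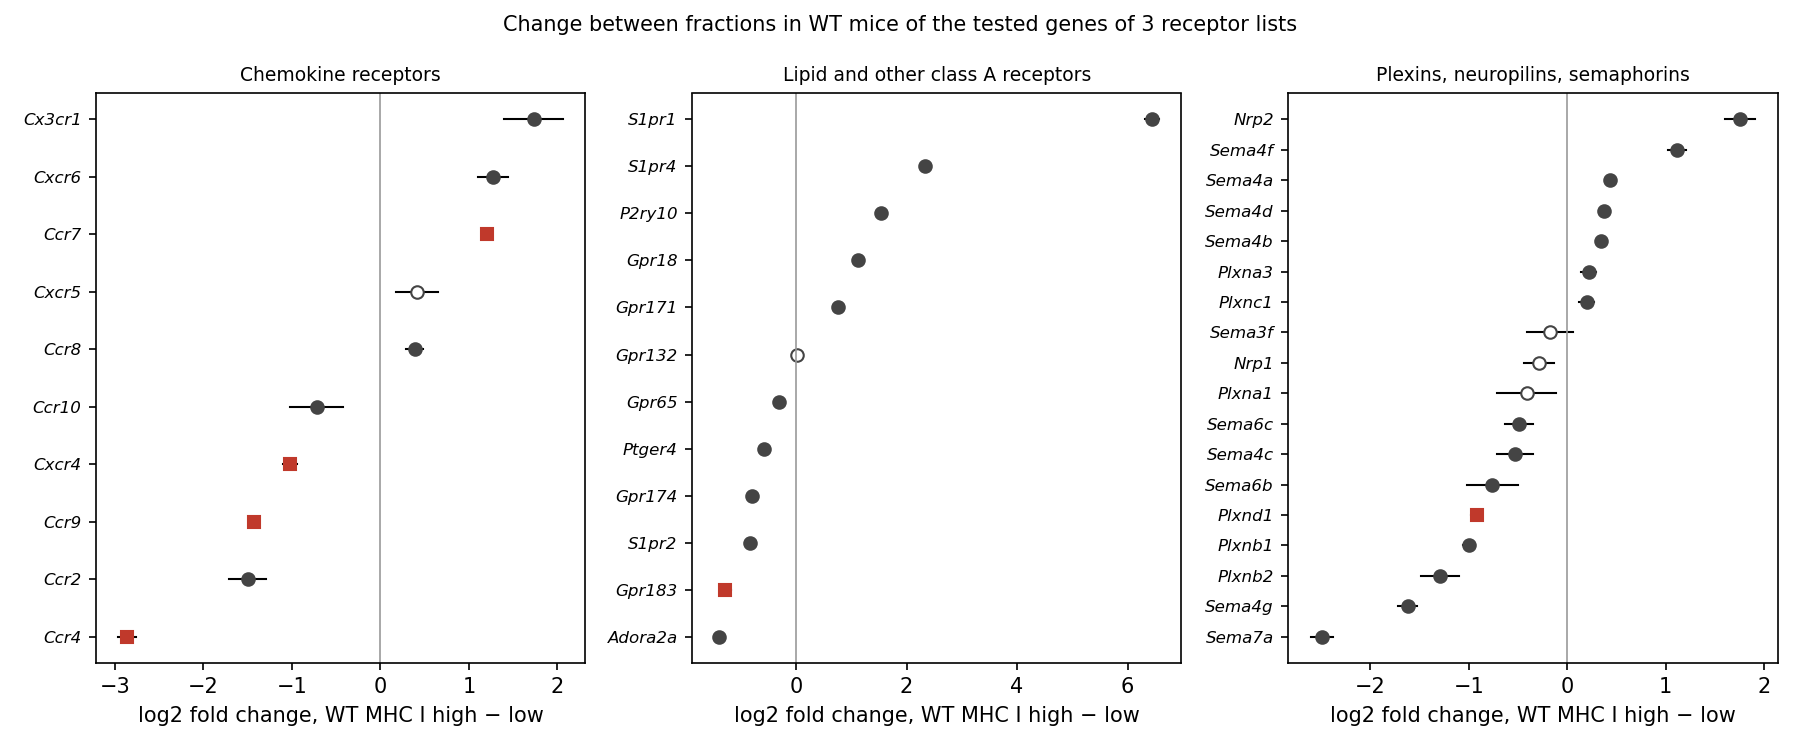
Log2 fold change between MHC I high and low cells of WT mice (x axis) for the tested genes (y axis) of 3 receptor lists, with standard errors. Red squares are the members, filled symbols have adjusted p-values under 0.05, and 3 chemokine receptors with a WT library at 3 counts or fewer are left out. Ccr4 (−2.86) is lowest in its panel, Gpr183 (−1.28) lies next to the lowest, and Plxnd1 (−0.92) sits among the falling genes.

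Of 21 ligands and ligand enzymes only 5 passed the filter in these sorted cells. Xcl1 rose from 0.958 ± 0.591 to 6.57 ± 1.92 CPM between the WT fractions (2.96, adjusted p = 3.91e-07), and Hsd3b7, an enzyme that degrades the EBI2 ligand, was lower in Sharpin cpdm than in WT MHC I low cells (−0.54, adjusted p = 0.014). Among 39 genes of receptor signalling, adhesion and their regulators 37 were tested, and in WT mice 15 rose, 10 fell and 12 were not called, beside 27.5% of all genes that rose and 26.8% that fell. Pik3cg, the PI3-kinase catalytic subunit that acts below these receptors, fell from 246.8 ± 11.3 to 116.9 ± 2.91 CPM (−1.09, adjusted p = 3.17e-19), and the integrin gene Itgb7 rose from 84.6 ± 2.25 to 416.2 ± 21.1 CPM (2.30, adjusted p = 1.57e-26). Between Hoil ΔCd4 and WT the list had 0 calls in the early fraction, where 0.985% of all genes were called, and 1 in the late, where 6.65% were (Rgs16, −0.80, adjusted p = 0.00357). Sharpin cpdm MHC I low cells had 6 higher and 2 lower (5.31% and 6.92% of all genes), among them Gnai2, an inhibitory G-protein subunit used by chemokine receptors (0.22, adjusted p = 0.00605), and Rac2 (0.25, adjusted p = 0.00277).

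Over the 18 samples, the log2 levels of Ccr9, Ccr4, Gpr183 and Plxnd1 went together, with Pearson's r from 0.907 to 0.992 between them. Ccr7 ran against them, from −0.938 with Ccr4 to −0.871 with Gpr183. Cxcr4 was least like the other falling members, with r from 0.711 (Gpr183) to 0.781 (Ccr4). The 18 points form 2 clusters, the fractions, and come in pairs from 9 mice, so these values are descriptions. By the same measure the tested genes nearest to Cxcr4 were Dubr (0.948), Cep170 (0.926) and Naa15 (0.923). Nearest to Ccr7 were Ppm1b (0.986), Oas3 (0.984) and Ifi213 (0.983), and among the nearest to Ccr4 were Slc9a9 (0.995) and Hivep3 (0.994). Ccr9 was nearest to Slc9a9 (0.995), Gpr183 to Sox4 (0.979) and Plxnd1 to Ptprf (0.989).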

How the data were processed

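RNA from sorted CD69+ MHC I low and MHC I high thymocytes of 9 mice was sequenced from TruSeq libraries as single-end reads. The authors aligned reads to mm10 with Subread and deposited raw counts per gene from featureCounts (versions not given in the sources used here) with the built-in RefSeq annotation. Genes were named by Entrez Gene number from a RefSeq table (GRCm38.p6). Of 27179 genes 25275 matched, and the 1904 others held 0.655% of counts. Here a gene was kept if 3 or more samples had 0.5 CPM or more, and Y-linked, predicted and unnamed genes and Xist were left out of tests, as in the study, which left 12798.

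Counts were turned into log2 CPM (TMM factors 0.987 to 1.02, prior count 1) with edgeR 4.0.16 and tested with limma 3.58.1 in R 4.3.3: 6 groups, sample quality weights (0.628 to 2.42), mouse as a random block (correlation 0.224), moderated tests with trend and robust settings, two-sided, Benjamini-Hochberg over all genes. Both fractions came from the same mouse, per the labels, and deviations of its 2 samples from their group means correlated from 0.0702 to 0.256. Alternatives used edgeR's quasi-likelihood test, DESeq2 1.42.0, other scalings, filters, blocks, prior counts and left-out mice. The scripts were tested on simulated data. A table that repeats the per-sample counts was not used.

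The members and the gene lists were chosen with earlier results of these data known. Members are described in every comparison, and of each list at most the 4 called genes with the smallest p-values in a comparison are named, as are, for each member, the genes with the highest correlation. Sema3e, the ligand of a member, was named after its values were seen. A mouse is the replicate. Depth limits the precision least for Ccr9 and most for Gpr183. A few genes of the marker lists and of the correlated genes are not reported here, and the marker sums and counts leave them out.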

Additional observations from a re-analysis of the deposited data

Results flagged for a closer look

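The change of Cxcr4 between fractions differed between Hoil ΔCd4 and WT mice by 0.69 on the log2 scale in a test of the difference itself (limma interaction, adjusted p = 0.00805), with the change at -1.05 ± 0.04 in WT and -0.36 ± 0.33 in Hoil ΔCd4 mice (SD, n = 3). Groups of 3 mice were too small to be tested for single outlying samples.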

How the results depend on the processing

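All 6 members stayed called in the same direction between fractions in WT and Sharpin cpdm mice under 23 alternatives, and in Hoil ΔCd4 mice but for Cxcr4 without replicate 1. The count of members called changed elsewhere as follows, and the cause was not tested. For Hoil ΔCd4 against WT MHC I high cells it was 0 to 1 with a mouse left out. For Sharpin cpdm against WT MHC I high cells it was 1 with at least 10 counts in every sample, 2 with the Xist covariate and 0 to 2 with a mouse left out. For Hoil ΔCd4 against Sharpin cpdm MHC I low cells it was 1 with library sizes only, without a filter and without the replicate block, and 1 to 2 with a mouse left out. Between these mutants in MHC I high cells Ccr4 was called in addition without WT mouse 1 (adjusted p = 0.0378). The Hoil ΔCd4 interaction had 0 by edgeR, without a filter, without the replicate block and with the mouse number as the block, and 0 to 1 with a mouse left out. The Sharpin cpdm interaction had 1 with at least 10 counts, with each mouse as a fixed block and with only the groups compared, and 0 to 1 with a mouse left out. The other fits with a changed or no mouse block changed no call. Changes of sign touched only differences near 0 that were not called, in log2 units. With library sizes only they were 0.0023 for the Ccr7 interaction in Hoil ΔCd4 mice and -0.0070 for Ccr4 between Sharpin cpdm and WT MHC I low cells. The latter was -0.0022 with DESeq2 size factors, -0.0099 with at least 10 counts and -0.0012 with the Xist covariate, which also gave 0.0132 for Ccr9 and 0.0342 for Gpr183 between Hoil ΔCd4 and WT MHC I low cells. Plxnd1 in that comparison was 0.0063 by edgeR, 0.0093 by DESeq2, 0.0022 with its size factors, 0.0005 without a filter, 0.0033 with predicted genes, 0.0104 without weights, 0.0009 without the replicate block, 0.0071 with only the groups compared and 0.0000 with a prior count of 3. With a mouse left out, ranges that cross 0 were -0.0660 to 0.05 (Ccr7, Hoil ΔCd4 interaction), -0.1136 to 0.0258 (Ccr9, between the mutants, MHC I high), -0.0400 to 0.1348 (Ccr9, Sharpin cpdm interaction), -0.0174 to 0.0217 (Ccr4, Sharpin cpdm against WT, low), -0.1655 to 0.0027 and -0.0332 to 0.1098 (Gpr183, Hoil ΔCd4 and Sharpin cpdm against WT, low), -0.2127 to 0.0927 (Gpr183, between the mutants, high), -0.0806 to 0.0553 (Plxnd1, Hoil ΔCd4 against WT, low), -0.0073 to 0.1190 (Plxnd1, between the mutants, high) and -0.0979 to 0.0311 (Plxnd1, Sharpin cpdm interaction).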
